A study of Vitis vinifera with 2 samples.

Results

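Un is the sequence of the grapevine assembly that gathers scaffolds assigned to no chromosome, and its DNA methylation was measured by whole-genome bisulfite sequencing (WGBS) in an autotetraploid and a diploid grapevine. The autotetraploid (4X) was made with colchicine from the diploid Vitis vinifera accession 'Jingyanjing' (2X). Tip buds of 3 vines per line were pooled, a week before the 4X terminal buds dropped, and gave 1 library per line. Each cytosine with at least 3 reads was listed with its methylated and unmethylated reads and its context. Cytosines were taken as members when they stood on Un and were listed in both libraries, which gave 6136997 of 97179016 shared cytosines (6.32%). They were summed in 10 kb windows, and 3943 windows of Un with at least 10 cytosines in each of the 3 contexts were used, of 47110 on all sequences. The 19 chromosomes (sequences 1-19) held 41534 windows and were the background.

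In plants, cytosines are methylated in the CG, CHG and CHH contexts, where H is A, C or T. CG methylation is copied after replication by MET1, CHG methylation is kept by chromomethylases that read a histone mark of silent chromatin, and CHH methylation has to be set anew by small-RNA-directed and chromomethylase activity. Silent repeats usually carry all of them, and bodies of expressed genes often carry CG methylation alone. Scaffolds stay unplaced mostly where repeats prevent a unique position, and by convention they are joined end to end, so a position on Un is not a position on a chromosome and neighbouring windows need not be neighbours in the genome. No genome sequence of the build of the files was used here, so no bases, genes or repeats are named for any window.

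Un was listed up to position 43220664. The 4X library had 6962902 listed cytosines there and the 2X library 7043670, with 99854850 and 107002763 base calls. Cytosines were listed more sparsely on Un than on the chromosomes. Cytosines listed in either library numbered 182 per kb on Un and 253 per kb on sequences 1-19, and stretches of at least 1000 bp without a listed cytosine took up 25.99% of Un and 8.44% of sequences 1-19. The files do not tell whether such a stretch is a gap of the assembly or was not covered by reads. A used window held a median of 1525 shared cytosines on Un and 2275 on sequences 1-19. The minimum of 10 cytosines per context left out 171 windows of Un (4.16% of those with a shared cytosine) and 1.58% of those on sequences 1-19. The 16 windows of Un with exactly 10 cytosines in their scarcest context had a median CG level of 65.1%, and the 10 windows with 9 had 59.1%. The windows used held 99.6% of the shared cytosines of Un.

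The weighted methylation level, which is the methylated reads of all cytosines over all their reads, was lower on Un than on the chromosomes for CG and higher for CHG and CHH. In 4X the CG level was 52.3% on Un and 59.2% on sequences 1-19, and in 2X it was 52.8% on Un and 59.3% on sequences 1-19. The CHG level in 4X was 34.0% on Un and 27.1% on sequences 1-19, and in 2X it was 34.5% on Un and 27.6% on sequences 1-19. The CHH level in 4X was 4.40% on Un and 2.46% on sequences 1-19, and in 2X it was 4.10% on Un and 2.47% on sequences 1-19. In both libraries Un lay below 18 of the 19 chromosomes for CG, above 18 of 19 for CHG and above all 19 for CHH. The chromosomes ranged between 48.0% (chromosome 8) and 67.3% (chromosome 15) for CG in 4X, between 17.7% (chromosome 8) and 35.0% (chromosome 15) for CHG, and between 2.01% (chromosome 8) and 3.43% (chromosome 10) for CHH. With a 95% counting interval, the difference between Un and sequences 1-19 in 4X was -6.89 ± 0.035 percentage points for CG, 6.91 ± 0.029 points for CHG and 1.94 ± 0.0047 points for CHH. In 2X the differences were -6.47 ± 0.034, 6.97 ± 0.028 and 1.63 ± 0.0044 points. These intervals cover counting error only, reads at adjoining cytosines come from the same fragments, and with 1 library per line nothing measured the spread between vines.

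**Figure D1:**
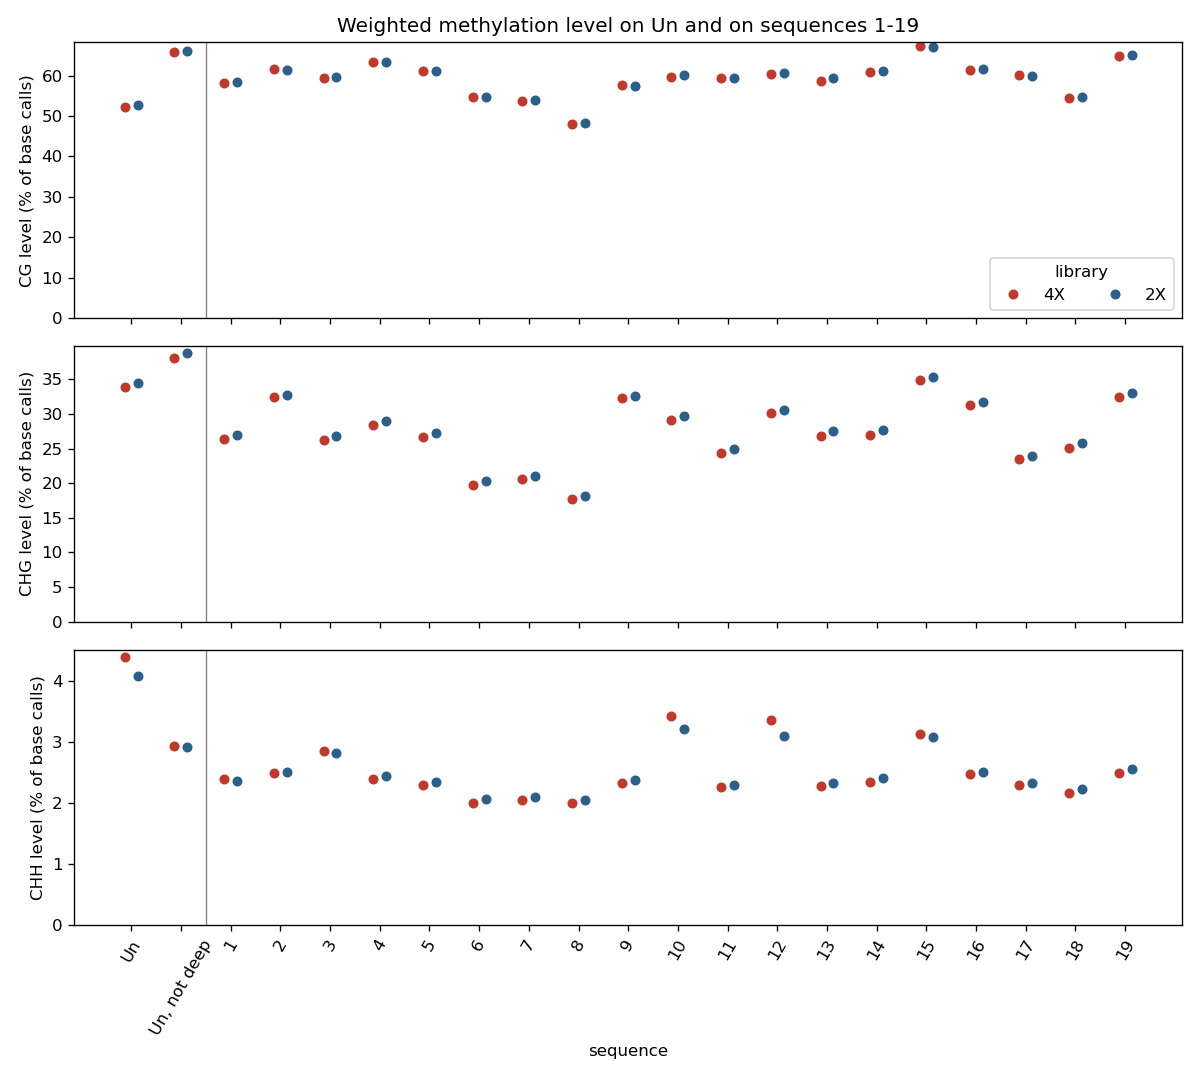
Weighted methylation level (vertical axes, % of base calls) in the CG, CHG and CHH contexts on Un, on Un without its deep windows and on each chromosome, with 4X left of 2X. Un lies low for CG and highest for CHH (4.40% in 4X and 4.10% in 2X). Without its 90 deep windows it lies above the chromosomes' CG mean and at 2.95% in 4X and 2.92% in 2X for CHH. The chromosomes shown keep their deep windows. With deep windows left out on both, the CG level of Un was higher by 3.74 points in 4X and 4.08 points in 2X. The window Un:36970001-36980000, deep but under the minimum of cytosines, stays in these values.

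The lower CG level of Un rested on a small set of deeply covered windows. A window was called deep when its mean depth was at least 3 times the median window of sequences 1-19 in both libraries, that median being 11.6 reads per cytosine in 4X and 12.7 in 2X. On Un 90 of 3943 windows were deep (2.28%, 95% Wilson interval 1.86 to 2.80%), and on sequences 1-19 135 of 41534 (0.325%, 0.275 to 0.385%). Adjoining windows are not independent, so these intervals are too narrow. Deep windows took 23.1% of the reads of Un in 4X and 21.96% in 2X, and 3.09% and 2.96% of those on sequences 1-19. Without deep windows the CG level in 4X was 65.7% on Un and 62.0% on sequences 1-19, and in 2X it was 66.1% on Un and 62.0% on sequences 1-19, so that Un was higher by 3.74 ± 0.041 points in 4X and by 4.08 ± 0.039 points in 2X. The CHG level of Un stayed higher (38.2% in 4X and 38.8% in 2X, against 27.6% and 28.2% on sequences 1-19). The CHH level also stayed higher (2.95% in 4X and 2.92% in 2X, against 2.35% and 2.40% on sequences 1-19), by 0.596 points in 4X and 0.518 points in 2X. Only used windows were called deep, so Un:36970001-36980000, described below, stayed in at a CHH level of 82.9% in 4X and 82.1% in 2X. Without cytosines deeper than the 99th percentile of depth the CHH excess of Un was 0.390 points in 4X and 0.387 points in 2X.

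Counted by window, Un held more strongly methylated sequence than the chromosomes. With both libraries pooled, the median window had a CG level of 73.2% on Un and 65.6% on sequences 1-19, a CHG level of 45.3% on Un and 27.3% on sequences 1-19, and a CHH level of 2.66% on Un and 2.13% on sequences 1-19. High medians were not particular to Un. In the 1633 windows of the sequences named random parts of chromosomes they were higher still, at 76.7% for CG, 50.9% for CHG and 2.97% for CHH. Windows with a CG level of at least 80% were 1479 on Un (37.5%) and 11842 on sequences 1-19 (28.5%). Windows with CG from 40 to 60% were 15.1% of Un and 21.3% of sequences 1-19, while those under 20% were 9.49% of Un and 7.13% of sequences 1-19. The distribution on Un was thus moved to both ends, and mostly to the upper one. Windows with both CG of at least 80% and CHG of at least 60%, levels usual in silent repeats, were 28.6% of Un (interval 27.2 to 30.04%) and 18.95% of sequences 1-19 (18.6 to 19.3%). Windows with CG of at least 40% but CHG under 5%, the combination known from gene bodies, were 6.34% of Un (5.62 to 7.14%) and 10.7% of sequences 1-19 (10.4 to 10.998%).

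**Figure D2:**
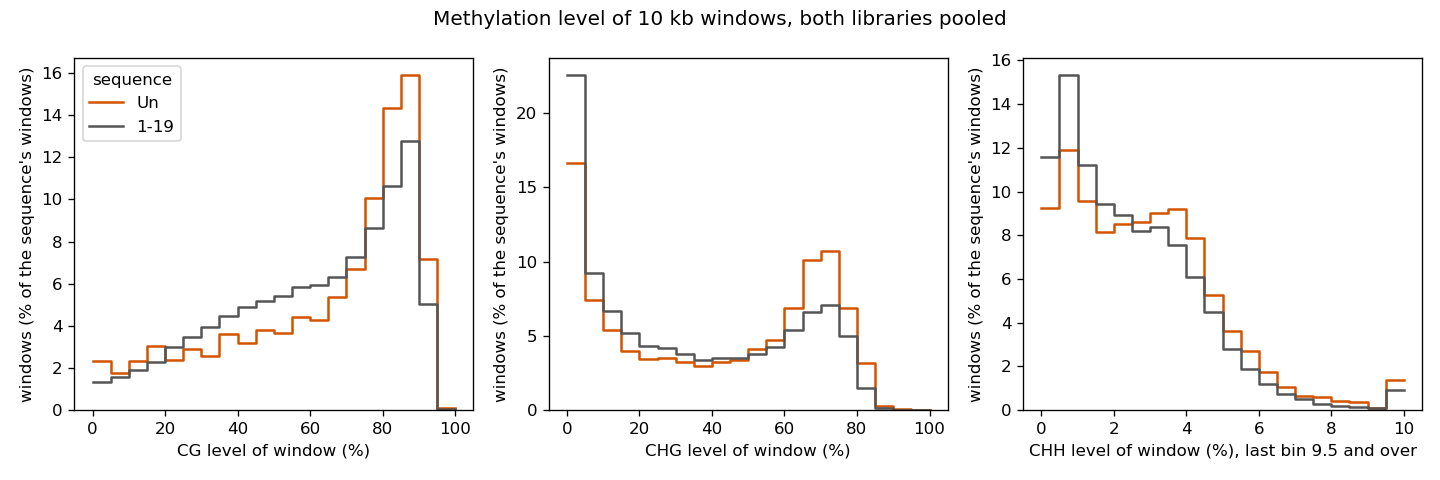
Share of 10 kb windows (vertical axes, % of the windows of Un or of sequences 1-19) by their CG, CHG and CHH level (horizontal axes, %), with reads of 4X and 2X pooled. Un has more windows at high CG and CHG levels (37.5% of its windows at a CG level of 80% or more, and 28.5% on sequences 1-19) and fewer with CHG near 0.

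Within a class of CG level, Un still had the higher CHG level. Among windows with CG from 60 to 80% the median CHG level was 52.3% on Un and 44.4% on sequences 1-19, and among those with CG from 20 to 40% it was 8.51% on Un and 6.38% on sequences 1-19. At CG of at least 80% the medians were 69.8% on Un and 68.1% on sequences 1-19. Across the 3943 windows of Un the CG and CHG levels correlated with Pearson's r = 0.764 and Spearman's rho = 0.776, and the CHG and CHH levels with r = 0.450 and rho = 0.841, points that share library, depth and base composition. Windows with more CHG than CG methylation were 152 on Un (3.85%) and 892 on sequences 1-19 (2.15%).

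The windows of Un were not alike along its length. In successive stretches of 5 Mb the median window CG level lay between 64.0% (25000001 to 30000000) and 83.6% (1 to 5000000), and the median CHG level between 31.9% and 66.1%. The first 5 Mb had the highest medians in all contexts and the most shared cytosines per window (2239), and the last stretch, beyond 40000000, had the fewest (876). The weighted CHH level was between 1.88% and 5.84% in 4X and between 1.92% and 5.02% in 2X in all stretches but one. In the stretch 35000001 to 40000000 it was 17.0% in 4X and 15.0% in 2X, although the median window there had 2.31%.

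The deep windows of Un fell into groups of very different methylation. After the values were seen, the used windows were divided in this order: 18 with a pooled CHH level of at least 20%, 62 with a regular spacing of 107 bp described below, 53 deep windows with CG under 20%, 27 other deep windows, and 3783 remaining ones. The 53 deep windows with CG under 20% held 25.8% of the CG reads of Un in 4X and 24.9% in 2X, at a CG level of 7.02% in 4X and 6.94% in 2X. On sequences 1-19 the same kind of window numbered 92 and held 5.12% of the CG reads in 4X and 4.94% in 2X. The 27 other deep windows of Un had CG levels of 78.2% in 4X and 76.6% in 2X and CHG levels of 55.6% in 4X and 54.2% in 2X.

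**Figure D3:**
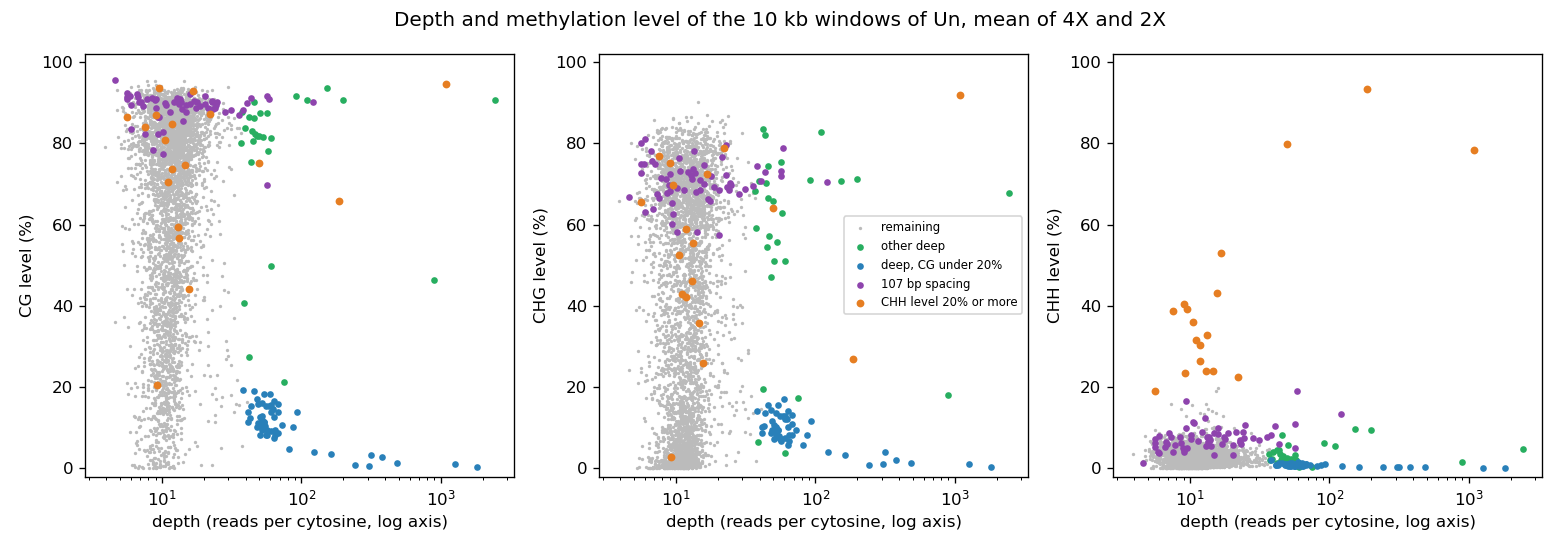
Mean depth (horizontal axes, reads per cytosine, log scale) and CG, CHG and CHH level (vertical axes, %) of the 3943 windows of Un, each a point at the mean of 4X and 2X. The 53 deep windows with CG under 20% form a group below the others, the windows of 107 bp spacing lie near a CG level of 90%, and 3 deep windows have CHH levels of 78% or more.

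The 3 deepest windows of Un differed from each other more than the libraries did. Window Un:22770001-22780000 had 2522 reads per cytosine in 4X and 2328 in 2X, and was heavily methylated, with CG levels of 91.0% in 4X and 90.4% in 2X, CHG levels of 68.3% and 67.4%, and CHH levels of 4.69% and 4.86%. Nearly all of its reads (99.95%) lay within 1 kb, from 22776817 to 22777816. Window Un:20490001-20500000 had 1665 reads per cytosine in 4X and 1989 in 2X and was almost unmethylated: its CG level was 0.393% in 4X and 0.443% in 2X, and its CHH level 0.184% in 4X and 0.210% in 2X. Window Un:17190001-17200000, with 1173 reads per cytosine in 4X and 1345 in 2X, had CG levels of 1.06% in 4X and 0.971% in 2X. Of the 15 windows of Un at 10 or more times the median depth, 9 had CG under 20% and 4 had CG of at least 80%. Whether these windows stand for many copies in the genome was not tested. The fraction of cytosines left unconverted by bisulfite was not given in the sources used here, and the lowest of these levels are an upper limit for it in these windows.

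Most of the deep windows with low CG methylation lay in runs. Of the 53, 36 lay in 8 runs of at least 3 adjoining windows, the longest being Un:17150001-17220000 and Un:23670001-23740000 with 7 windows each. Pooled over its windows, the CG level was lower in 4X in 5 of the 8 runs and higher in 3, and the CHH level was lower in 4X in all 8. In the run 17150001 to 17220000 the CG level was 4.24% in 4X and 3.94% in 2X, although 5 of its 7 windows were lower in 4X. In the run 23670001 to 23740000 the CG level was 8.35% in 4X and 9.09% in 2X, the CHG level 7.22% in 4X and 8.04% in 2X, and the CHH level 0.671% in 4X and 0.764% in 2X, and CG and CHG were lower in 4X in all 7 windows. In the run 29040001 to 29090000 the CG level was 12.4% in 4X and 13.4% in 2X, lower in 4X in all 5 windows. The other runs with the higher CG level in 4X were 1160001 to 1190000, with 5.58% in 4X and 5.46% in 2X, and 30780001 to 30820000, with 10.03% in 4X and 9.92% in 2X. CG and CHG levels close to each other with little CHH methylation were common to these runs.

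These windows also took more reads in 4X. Depth in a window was divided by the median window of sequences 1-19 of the same library, and the ratio of 4X over 2X was formed. Its median over the windows of Un was 1.01, with 90% of windows between 0.867 and 1.21, and over sequences 1-19 it was 0.998, with 90% between 0.885 and 1.13. In the 44 windows of Un with CG under 20% and 3 to 10 times the median depth the ratio was above 1 in all 44 (1.04 to 1.32, median 1.20), and the CG level was lower in 4X in 40 of them, by a median difference of -1.07 points. The 9 windows with CG under 20% and 10 or more times the median depth had ratios of 0.883 to 1.09, and CG was lower in 4X in 4 of them. On sequences 1-19 the 63 windows of the 3 to 10 times group had a median ratio of 1.06, with 55 above 1, and a median CG difference of -0.392 points. The medians of Un and sequences 1-19 were not tested against each other, since adjoining windows are not independent. With 1 library per line, a difference between the vines and one between the library preparations cannot be told apart.

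**Figure D4:**
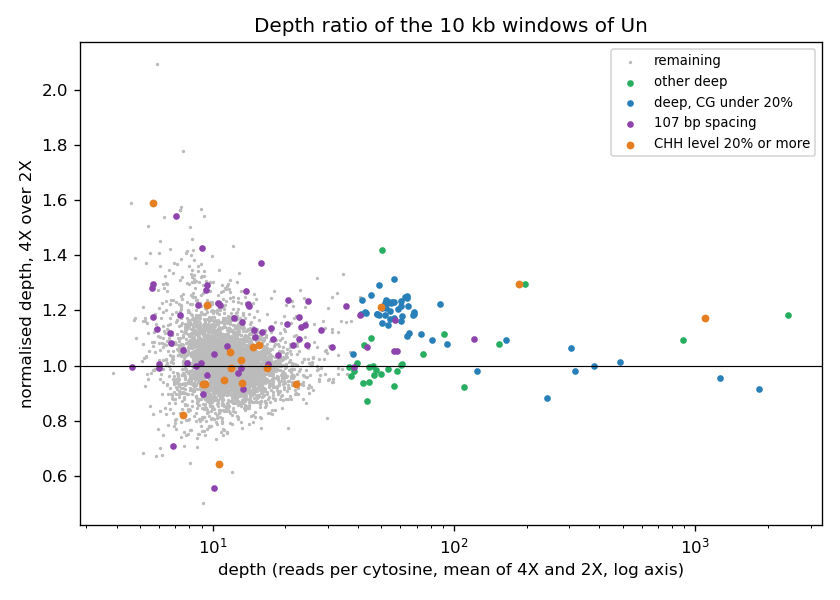
Normalised depth of 4X over 2X (vertical axis) against mean depth (horizontal axis, reads per cytosine, log scale) for the 3943 windows of Un, coloured by group. Windows with CG under 20% at 3 to 10 times the median depth lie between 1.04 and 1.32, above the line at 1, and deeper ones of low CG lie around it.

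A regular spacing of cytosines set other windows of Un apart. For each window the share of shared cytosines with another one exactly k bp further on was found for each distance k from 50 to 500 bp, and the median share over these distances was subtracted. At an excess of at least 20 percentage points, 107 bp spacing was found in 64 windows of Un (1.62%) and 42 of sequences 1-19 (0.101%). On Un 107 bp was the commonest distance (56 of the 111 windows with any such spacing), and on sequences 1-19 it was 66 bp (75 of 265). The distance of 107 bp was chosen because it was the commonest on Un, so the comparison of its shares favours Un. A satellite repeat with a unit of this length is known from grapevine centromeres; no bases were read here, so whether these windows hold it was not tested. The 64 windows had a median CG level of 89.7%, a CHG level of 70.6% and a CHH level of 7.34%, and CG cytosines made up a median of 36.6% of their shared cytosines. The 42 windows of sequences 1-19 had medians of 91.2%, 75.03% and 7.22%, with 39.3% CG cytosines. In the 62 of them on Un that were outside the high-CHH group, the CG level was 90.0% in 4X and 89.7% in 2X, the normalised depth was higher in 4X in 51 of 62, and the median ratio was 1.12.

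Most windows of Un with the largest share of CG cytosines had the 107 bp spacing. CG cytosines were 7.60% of the shared cytosines of Un (interval 7.58 to 7.62%) and 6.76% on sequences 1-19 (6.75 to 6.76%). Without deep windows they were 7.37% on Un and 6.75% on sequences 1-19. The CG share of Un without the windows of 107 bp spacing was not worked out. The highest chromosome had 7.30% (chromosome 15) and the lowest 6.32% (chromosome 6). Windows in which at least 20% of the cytosines were CG numbered 90 on Un (2.28%) and 107 on sequences 1-19 (0.258%), and 62 of the 90 had the 107 bp spacing, as had 39 of the 107. In the median window CG cytosines were 7.08% on Un and 6.54% on sequences 1-19, but because fewer cytosines were listed there were 10.4 of them per kb on Un and 13.8 on sequences 1-19. Windows whose CG share was over 8.67%, the limit above which 20% of the windows of sequences 1-19 lay, were 29.3% of Un, with median CHG levels of 58.5% on Un and 51.8% on sequences 1-19. At a CG share up to 4.87%, which took the lowest 20% of those windows, the medians were 31.4% on Un and 18.7% on sequences 1-19. Over the windows of Un the CG share correlated with the CG level at r = 0.030, with the CHG level at 0.187 and with the CHH level at 0.259.

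Among windows with at least 1000 shared cytosines, the densest were unlike in methylation. Window Un:30800001-30810000 held 947 CG cytosines (94.7 per kb) at a CG level of 11.3% in 4X and 11.4% in 2X and belonged to a deep run of low methylation. Window Un:13030001-13040000 held 877 CG cytosines at 91.6% in both libraries, and 58.9% of its cytosines had another one 107 bp further on, with a median of 27.1% over the distances searched. The least dense windows, Un:32110001-32120000 and Un:16890001-16900000, held 17 and 24 CG cytosines, with CG levels of 77.8% in 4X and 76.7% in 2X in the first and 48.1% and 41.2% in the second, differences of 1.09 ± 9.04 and 6.94 ± 10.3 points.

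CHH methylation, usually the weakest in plants, reached high levels in a few windows. The 3 highest were Un:21130001-21140000, with a CHH level of 93.8% in 4X and 92.7% in 2X, Un:25890001-25900000, with 81.4% in 4X and 78.5% in 2X, and Un:39550001-39560000, with 78.5% in 4X and 78.1% in 2X. All were deep, at 202 reads per cytosine in 4X and 170 in 2X, 52.2 and 47.1, and 1134 and 1056. In the first and second, CHH exceeded the other contexts, which were read at far lower depth. In the first, 193 CG, 222 CHG and 1656 CHH cytosines had 2867, 3101 and 412011 reads in 4X. In the second, 42 CG, 64 CHG and 491 CHH cytosines had 633, 1339 and 29171. The levels of the contexts thus need not describe the same stretch. The first had a CG level of 65.0% in 4X, against 66.4% in 2X, and a CHG level of 26.9%, against 26.8%. The second had a CG level of 76.9% in 4X and 73.6% in 2X and a CHG level of 63.7% in 4X and 64.4% in 2X. In the third CHH was the lowest, beside a CG level of 95.02% in 4X and 94.2% in 2X and a CHG level of 92.3% in 4X and 91.6% in 2X. There too CG and CHG were read at far lower depth. Its 73 CG, 63 CHG and 971 CHH cytosines had 5418, 5387 and 1244749 reads in 4X, so this order need not hold within a single stretch. In each, most reads lay within 1 kb (94.9%, 75.4% and 98.7% of them), and the high level belonged to a part of the cytosines: 382 of 1656, 166 of 491 and 215 of 971 CHH cytosines had a level of at least 80%, and 66.9%, 46.8% and 61.7% had 5% or less. In the first window those 382 took 94.1% of the CHH reads. Another cytosine lay 7 bp further on for 46.4%, 49.6% and 47.8% of the cytosines, against medians of 24.5%, 10.6% and 20.96% over the distances of 50 to 500 bp. An excess as large as in the first window (21.9 points) was found in 35 windows of Un (0.888%) and 96 of sequences 1-19 (0.231%), and one as large as in the second (39.03 points) in 3 windows of Un and 1 of sequences 1-19. The 7 bp spacing was thus not confined to windows of high CHH level, and which sequence repeats there was not tested.

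These 3 windows carried a large part of the CHH methylation counted on Un. They had 2.21% of its CHH reads in 4X and 1.87% in 2X, but 41.4% of its methylated CHH reads in 4X and 37.2% in 2X. The other 15 windows with CHH of at least 20% had 0.121% of the CHH reads in each library, with levels of 29.5% in both. A further window, Un:36970001-36980000, noticed after its values were seen, had 176 CHH cytosines at 82.9% in 4X and 82.1% in 2X and 859 reads per cytosine in 4X and 633 in 2X. It was not among the windows used because it held no shared CG cytosine and only 1 CHG cytosine. On sequences 1-19 there were 105 windows with CHH of at least 20%, and their weighted CHH level was 62.3% in 4X and 56.8% in 2X.

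Between the lines, Un differed little. On Un the CG level was lower in 4X (52.3% in 4X and 52.8% in 2X, a difference of -0.541 ± 0.046 points), as was the CHG level (34.0% in 4X and 34.5% in 2X, -0.579 ± 0.039 points), while the CHH level was higher in 4X (4.40% in 4X and 4.10% in 2X, 0.303 ± 0.0063 points). On sequences 1-19 the differences were -0.129 ± 0.015 points for CG, -0.525 ± 0.011 points for CHG and -0.0072 ± 0.0014 points for CHH. The difference on Un minus that on sequences 1-19 was -0.413 ± 0.049 points for CG, -0.054 ± 0.040 points for CHG and 0.310 ± 0.0065 points for CHH. Among chromosomes the CG difference ran from -0.648 points (chromosome 13) to 0.249 points (chromosome 15), and the CHG difference from -0.696 points (chromosome 13) to -0.299 points (chromosome 2), so that Un was within both ranges. The CHH difference of Un exceeded that of every chromosome, the highest being 0.253 points (chromosome 12). With the deep windows among the used ones left out on Un and on the chromosomes, it was 0.030 ± 0.0059 points. The highest chromosome was then at -0.027 points (chromosome 2). This value of Un still holds Un:36970001-36980000, deep but under the minimum, with 152060 CHH reads at 82.9% in 4X and 112019 at 82.1% in 2X. Without cytosines deeper than the 99th percentile of depth the difference on Un was -0.045 points. Its sign thus rests on very deep cytosines, and its rank without them was not worked out. With the deep used windows left out, the CG difference was -0.391 ± 0.055 points and below that of all 19 chromosomes, the lowest being -0.192 points (chromosome 18).

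The CHH difference of Un did not belong to most of its windows. The median window differed by -0.039 points, and of the 3783 remaining windows 2086 had the lower CHH level in 4X and 1695 the higher. All windows of CHH of at least 20% were then left out, a choice made after the values were seen. These included windows under the minimum of cytosines, among them the deep one described above. Without them the difference was -0.039 ± 0.0049 points in place of 0.303 points. Its value without only the used windows of CHH of at least 20% was not worked out. Over the windows used, the difference of 0.253 points was split by arithmetic into a part from the levels within the 5 groups, each weighted by its mean share of reads, and a part from the shares, each weighted by the mean level. The levels gave -0.0018 points and the shares 0.255 points. Of the latter, 0.271 points came from the high-CHH windows, which took 2.34% of the CHH reads in 4X and 2.00% in 2X. Within the 3 deep ones the CHH level was 82.3% in 4X and 81.4% in 2X, a difference of 0.889 ± 0.084 points. Over all sequences, the CHH difference of 4X minus 2X was 0.0168 points with Un and -0.0091 points without it, and -0.0065 points without its deep windows alone.

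The CG and CHG differences were divided otherwise. For CG the split gave -0.165 points from levels and -0.377 points from shares of reads, and for CHG -0.411 and -0.169 points. In the remaining windows the CG level was 64.8% in 4X and 65.3% in 2X (-0.510 ± 0.056 points) and the CHG level 37.6% in 4X and 38.3% in 2X (-0.678 ± 0.046 points). Of these windows 1900 had the higher CG level in 4X and 1878 the lower, and the median CG difference over all used windows of Un was 0.0098 points, so the CG sign depends on the weighting of windows. The CHG level was lower in 4X in 2065 of the remaining windows and higher in 1709, with a median of -0.164 points over all used windows. Pooled over reads, the deep windows ran the other way: their CG level was 28.7% in 4X and 27.8% in 2X, their CHG level 21.4% in 4X and 20.96% in 2X, and their CHH level 9.77% in 4X and 8.75% in 2X. Counted by window they did not, since CG was lower in 4X in 55 of the 90, CHG in 55 and CHH in 56, with median differences of -0.353, -0.365 and -0.051 points.

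Window by window, 4X and 2X were close. Their levels correlated over the windows of Un at r = 0.991 for CG, 0.994 for CHG and 0.979 for CHH. A difference of at least 5 points in CG was found in 497 windows of Un (12.6%), 232 higher and 265 lower in 4X, against a background of 9.54% over all windows (4.53% higher and 5% lower). For CHG, 386 windows (9.79%) differed by at least 5 points, 161 higher and 225 lower in 4X, against 6.42% (2.78% higher and 3.64% lower), and for CHH 288 (7.30%) by at least 1 point, 136 higher and 152 lower, against 4.10% (1.91% higher and 2.19% lower). These shares went with the number of reads. Windows of Un with fewer than 595 CG reads in the shallower library passed the CG threshold in 27.2% of cases, and those on sequences 1-19 in 26.6%. At 1916 reads or more the shares were 3.35% on Un and 4.88% on sequences 1-19. For CHG, windows with fewer than 925 reads passed in 25.7% of cases on Un and 22.9% on sequences 1-19, and for CHH, windows with fewer than 6679 reads passed in 19.5% and 21.2%. Under these limits lay 985 windows of Un for CG, 986 for CHG and 986 for CHH of 3943, and 4023, 4713 and 3548 of the 41534 windows of sequences 1-19.

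**Figure D5:**
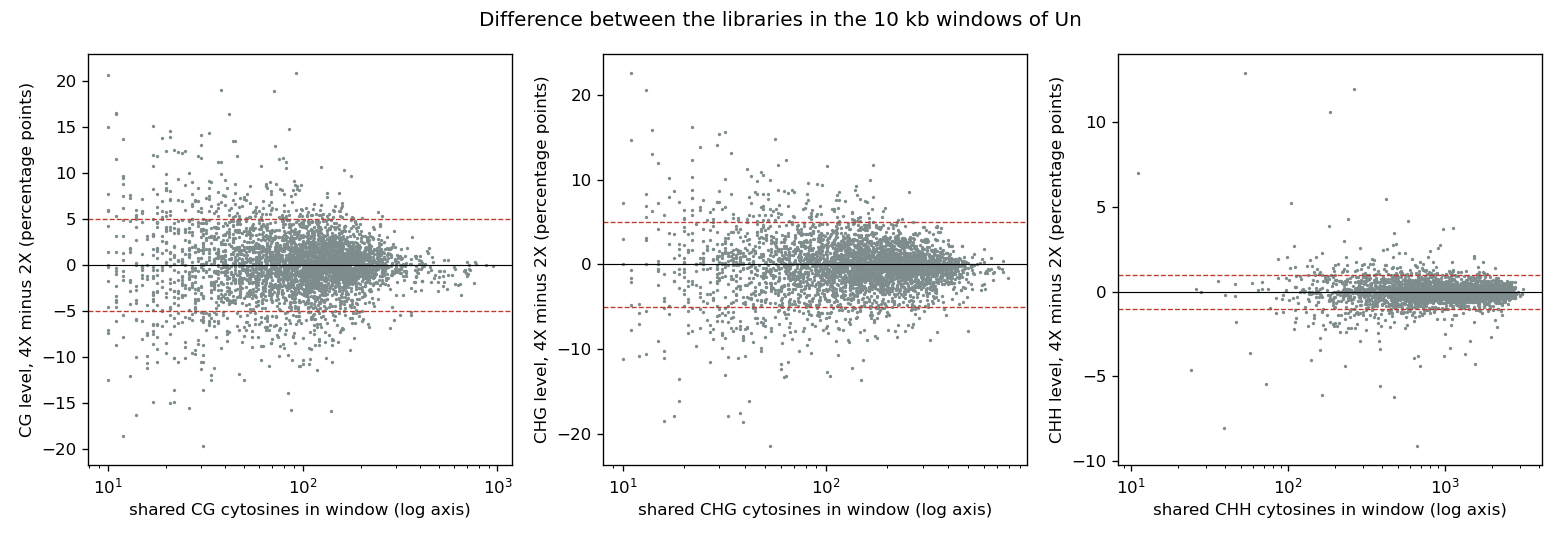
Difference in level, 4X minus 2X (vertical axes, percentage points), of the 3943 windows of Un against their shared cytosines of the context (horizontal axes, log scale), with dashed lines at 5 points for CG and CHG and 1 point for CHH. The points narrow towards 0 as the cytosines in a window increase, and most of the 497, 386 and 288 windows past the lines hold few cytosines.

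The windows that differed most, among those with at least 50 cytosines of the context, mostly had less than the median depth. For CG, Un:32340001-32350000 had 74.7% in 4X and 53.8% in 2X (20.9 ± 3.63 points, 93 cytosines) and Un:39230001-39240000 had 87.5% in 4X and 68.7% in 2X (18.8 ± 5.18 points, 71 cytosines). At the other end, Un:38000001-38010000 had 35.8% in 4X and 51.8% in 2X for CG (-15.9 ± 3.82 points) and 35.0% in 4X and 48.6% in 2X for CHG (-13.6 ± 3.74 points), and Un:36710001-36720000 had 36.8% in 4X and 52.6% in 2X for CG (-15.8 ± 4.56 points). In these 4 windows CHG moved in the direction of CG, by 5.33, 7.51, -13.6 and -11.6 points. For CHG the window most raised in 4X was Un:34690001-34700000, with 58.6% in 4X and 43.8% in 2X (14.8 ± 5.19 points), followed by Un:30740001-30750000 with 44.4% in 4X and 32.0% in 2X (12.3 ± 6.52 points). The window most lowered was Un:41620001-41630000, with 49.6% in 4X and 71.1% in 2X (-21.4 ± 6.01 points).

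For CHH the extremes were windows of unusual CHH methylation. Un:20280001-20290000 had 25.6% in 4X and 12.7% in 2X (12.9 ± 6.17 points, 53 cytosines) and Un:38040001-38050000 had 49.2% in 4X and 37.2% in 2X (11.97 ± 2.10 points, 265 cytosines). In the second, CG was 43.5% in 4X and 44.7% in 2X (-1.20 ± 6.72 points). Un:38940001-38950000 had 18.8% in 4X and 27.9% in 2X (-9.11 ± 1.47 points) with CHG at 2.34% in 4X and 3.33% in 2X, and Un:3180001-3190000 had 9.86% in 4X and 16.1% in 2X (-6.19 ± 1.38 points).

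Single cytosines of Un called as different between the libraries were few. Fisher's exact test (two-sided, Benjamini-Hochberg adjusted over all shared cytosines of the context) called 70 CG cytosines of 466619 on Un, 61 higher and 9 lower in 4X, which is 0.0150% against a background of 0.0230% (0.0200% higher in 4X). It called 34 CHG cytosines, 23 higher and 11 lower in 4X (0.00482% against 0.00569%, of which 0.00429% were higher in 4X), and 1 CHH cytosine, higher in 4X, where the background was 8.81e-06%. Of all calls over the sequences together, 87.0% of the CG and 75.4% of the CHG ones were higher in 4X. The test compares the reads of the libraries and not the lines. Before adjustment, Fisher's exact test gave p under 0.05 at 2.00% of CG cytosines on Un and 1.79% on sequences 1-19. For CHG these shares were 1.89% and 1.44%, and for CHH 0.342% and 0.284%. Few calls after adjustment thus do not mean few differences, or fewer on Un. The median depth of called CG cytosines higher in 4X was 21 reads in 4X and 29 in 2X, and their median level was 90.9% in 4X and 0% in 2X. The CHH cytosine, at 10722669, had 13 of 13 reads methylated in 4X and 0 of 21 in 2X (Fisher's exact test, adjusted p = 0.0171).

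The calls clustered. The 105 called cytosines lay in 63 windows, of which 47 held a single one. Window Un:32340001-32350000, the one with the greatest CG difference, held 13, all higher in 4X and all between 32341778 and 32341894, with a median level of 94.7% in 4X and 0% in 2X. At 32341854 26 of 27 reads were methylated in 4X and 0 of 39 in 2X (Fisher's exact test, adjusted p = 2.7e-11). Window Un:23070001-23080000 held 9, all higher in 4X, between 23074616 and 23074718, with medians of 95% in 4X and 0% in 2X. Its CG level over 10 kb differed by 5.09 points and its CHH level by 0.236 points. In both windows CG and CHG cytosines were called together (10 and 3 in the first, 8 and 1 in the second). Each of the 8 windows with at least 3 calls had all of them in one direction, higher in 4X. Most calls over all sequences were higher in 4X too. Neighbouring calls can come from the same fragments, and some were both strands of a CG site. The calls of a window are thus not separate observations.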

How the data were processed

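WGBS of pooled tip buds gave 1 library each of 4X and 2X. The authors removed low-quality reads and mapped the rest to the V. vinifera genome with an aligner their methods spell Bimark; the sources used here give no version, genome build, duplicate handling or conversion rate. The deposited files give, per cytosine, methylated and unmethylated read counts, the context, and the level in percent, which equals the counts' share in every line. Every listed cytosine had at least 3 reads. The members and lists were chosen with earlier results of these data known.

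Cytosines on Un listed in both libraries were joined by position and summed in 10 kb windows with at least 10 cytosines per context. Levels are weighted by reads. Intervals are 95% Wilson intervals, or normal intervals for differences, and cover counting error only. Mean depth over listed cytosines was 14.3 reads on Un in 4X and 15.2 in 2X. Windows were called different at 5 points (CG, CHG) or 1 point (CHH) with no test of lines, and cytosines by Fisher's exact test, adjusted over all shared cytosines of a context at 0.05. The Fisher test was tested on simulated data.

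The windows named were, per context, the 2 largest and 2 smallest differences among those with at least 50 cytosines, the 3 deepest, the 3 with the highest CHH level, and the 2 with most and 2 with fewest CG cytosines per kb among those with at least 1000 cytosines; chromosomes were named as highest or lowest. The groups of windows, the 107 bp and 7 bp spacing, the depth of 10 times the median, the runs and the classes by reads were chosen after the values were seen. Alternatives were minimums of 5 and 10 reads, removal of cytosines above the 99th percentile of depth (42 reads in 4X, 48 in 2X) or of deep windows, unweighted means, medians over windows, each library's own cytosines, windows of 5 and 50 kb, and other limits for deep. Lines with no context (6 in 4X, 10 in 2X) were left out. The gene table at hand is of another assembly and was not used. Python 3.11.15, numpy 2.4.6, scipy 1.17.1 and numba 0.67.0 were used.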

Additional observations from a re-analysis of the deposited data

Results flagged for a closer look

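Cytosines of Un listed in 1 library only were not part of any comparison, and each context carried methylation there. In 4X, 65180 CG, 96128 CHG and 664597 CHH cytosines were listed in that library alone, with levels of 59.4%, 35.7% and 3.002% and mean depths of 4.51, 4.58 and 4.55 reads. In 2X, 71389 CG, 102873 CHG and 732411 CHH cytosines were listed alone, with levels of 60.5%, 37.9% and 3.09% and mean depths of 4.63, 4.68 and 4.67 reads. Shared CG cytosines of Un had 18.7 reads on average in 4X, against 19.7 in 2X, and a lower level (52.3% in 4X and 52.8% in 2X) than those listed once, while shared CHH cytosines had the higher level (4.40% in 4X and 4.10% in 2X). On sequences 1-19 the CG level of cytosines listed once was 52.2% in 4X and 55.0% in 2X, below that of the shared ones. They were picked out because they carry signal outside the shared cytosines.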

How the results depend on the processing

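No paired analysis was possible because only 1 library was made of 4X and 1 of 2X. The depth limits windows: most counts of windows past a threshold fell as reads per window increased.

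The CG difference of 4X minus 2X on Un (-0.541 points) turned to 0.0892 points as a mean of site levels and to 0.0098 points as a median over windows. The CHG difference (-0.579 points) was -0.164 points as a median over windows and -0.0723 points as a mean of site levels. The CHH difference (0.303 points) turned to -0.045 points once cytosines deeper than the 99th percentile were removed. It was -0.0447 points as a mean of site levels and -0.0394 points as a median over windows. Without windows of CHH of 20% or more, those under the minimum of cytosines included, it was -0.0388 points.

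The CG level of Un minus that of sequences 1-19 (-6.89 points in 4X, -6.47 in 2X) turned in 4X and in 2X to 2.43 and 2.99 points once cytosines deeper than the 99th percentile were removed, to 3.74 and 4.08 points without deep windows, to 2.79 and 2.94 points as means of site levels, and to 7.52 and 7.48 points as medians over windows. As medians over windows the CHG difference was 17.8 points in 4X and 18.0 in 2X, and the CHH difference 0.511 and 0.522 points.

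The share of CG windows past the threshold (12.6%) was 5.68% with Fisher's test of the summed reads added, 1.63% in 50 kb windows, 8.37% with at least 50 cytosines per context and 6.19% with means of site levels. For CHG (9.79%) these were 5.40%, 1.75%, 5.81% and 6.01%. For CHH (7.30%) the share was 10.998% in 5 kb windows, 1.28% in 50 kb windows and 4.75% with at least 50 cytosines. Deep windows were 3.70% of Un at 2 times and 0.685% at 5 times the median. The CG share of cytosines (7.60%) was 7.66% over cytosines listed in either file and 7.67% at 10 reads. The cause of these changes was not tested. In 71 alternatives, the CHG mean of site levels among them, the value kept its direction and its side of the threshold, or stayed within 1.5 times a count; a minimum of 5 or 10 reads turned no sign.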
